A study of Mus musculus with 6 samples.

Results

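Ceacam1 and 4 related adhesion genes, Ceacam2, Ceacam10, Icam1 and Vcam1, were followed across cultured cells of the mouse lacrimal gland. Each gene was taken as the probe set with exactly 1 gene symbol equal to its name, taking the brightest by its mean where a gene had several. All 5 genes were found, each with 1 probe set, among 22180 named genes. Ceacam1 was selected on its log2 difference between the groups, measured on these same arrays, and the other 4 were chosen as its relatives with those values known. The group differences of all 5 genes are therefore a description without a test.

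The study compared cells from TSP1 null mice (3 arrays) with cells from wild type C57BL/6J mice (3 arrays), all female and without treatment. The Thbs1 gene encodes thrombospondin-1 (TSP1), which cells secrete into the matrix, and mice without it serve as a dry eye disease model. The exorbital glands were digested with collagenase, the released cells were grown for about 2 to 3 weeks as myoepithelial cells, the contractile cells around the secretory acini, and 150 ng of total RNA per sample was labelled for Affymetrix Mouse Gene 2.0 ST arrays. The labels give neither the allele nor the background strain of the null mice nor their age, and they do not say whether each array had its own culture or animal, so errors and p-values describe the spread between these arrays. Thbs1 itself read 12.73, 13.03 and 13.00 on the null arrays and 13.51, 13.75 and 13.54 on the wild type arrays, lower in the null group without overlap but still bright, by -0.68 (SE 0.13). The position of its probes relative to the deletion is not known here, and this signal does not check the labels.

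CEACAM1 is a transmembrane glycoprotein of the immunoglobulin superfamily that binds its like on neighbouring cells and is carried by many epithelia, by blood vessels and by leukocytes. Its long form holds inhibitory tyrosine motifs in the cytoplasmic tail, which recruit the phosphatases encoded by Ptpn6 and Ptpn11. ICAM1 and VCAM1 are adhesion receptors of endothelial and stromal cells that are induced by inflammatory cytokines through NF-kappaB. They are bound by leukocyte integrins, ICAM1 by those with the chain encoded by Itgb2 and VCAM1 by those with the chain encoded by Itga4.

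The 3 CEACAM genes lie on chromosome 7 and share stretches of sequence before their starts. The 250 bases before the transcription start were read from RefSeq (build GRCm38.p6), which had a window for 4 of the 5 genes and none for Vcam1. Ceacam10 had 2 windows, and the one with the lowest start coordinate was used. Its other window was not compared, so what follows for Ceacam10 holds for that start alone. Ceacam1 and Ceacam10 are shown because their upstream sequences are nearly the same. Aligned locally, they matched at 222 of 232 positions (95.7%) without a gap. The capitals mark their longest shared run, 114 bases.
Ceacam1, chr7:25477626-25477875, minus strand: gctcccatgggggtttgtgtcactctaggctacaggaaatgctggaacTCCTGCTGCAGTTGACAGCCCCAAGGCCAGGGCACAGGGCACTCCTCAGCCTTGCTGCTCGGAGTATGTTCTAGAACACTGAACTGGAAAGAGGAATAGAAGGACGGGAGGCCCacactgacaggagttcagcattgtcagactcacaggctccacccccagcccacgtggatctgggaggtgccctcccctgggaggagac
Ceacam10, chr7:24776917-24777166, plus strand: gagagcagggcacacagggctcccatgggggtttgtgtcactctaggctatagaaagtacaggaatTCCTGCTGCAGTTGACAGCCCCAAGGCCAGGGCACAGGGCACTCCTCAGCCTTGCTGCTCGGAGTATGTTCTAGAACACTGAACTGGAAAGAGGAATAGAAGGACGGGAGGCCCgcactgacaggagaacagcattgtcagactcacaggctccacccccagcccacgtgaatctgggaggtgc
In Ceacam2, the next measured gene beside Ceacam1 on the chromosome, 104 of 120 aligned positions matched Ceacam1 (86.7%), and the capitals mark the longest run shared with it, 21 bases.
Ceacam2, chr7:25540005-25540254, minus strand: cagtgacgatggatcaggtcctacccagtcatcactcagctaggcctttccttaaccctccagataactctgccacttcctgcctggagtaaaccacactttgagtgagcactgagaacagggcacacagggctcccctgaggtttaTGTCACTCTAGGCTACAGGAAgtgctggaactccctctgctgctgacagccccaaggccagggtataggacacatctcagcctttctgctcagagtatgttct
The E-box CACGTG, a palindrome and so the same on both strands, occurred once each in the windows of Ceacam1 and Ceacam10 and not in that of Ceacam2, against 6.02% of all 32851 windows cut to the same length. These bases lie outside the RNA; whether the RNAs of these paralogs bind each other's probes was not tested, and their signals are uncertain in that respect.

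Ceacam1 gave log2 signals of 6.62, 7.31 and 6.43 on the 3 TSP1 null arrays and 8.62, 9.11 and 8.84 on the 3 wild type arrays. Every null array lay below every wild type array, and the highest null value, on the second array, was 1.31 below the lowest wild type value. The means were 6.79 ± 0.46 and 8.86 ± 0.25 (SD, n = 3), a difference of -2.07 (SE 0.24), or 4.20-fold lower in the null group. This is the difference that drew attention to the gene. Of the 5 genes, Ceacam1 alone had groups that did not overlap, where 15.8% of all genes tested did so in either direction, 10.1% with the null group higher and 5.75% with it lower; since the choice of genes used this contrast, nothing is read from that count.

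Ceacam2, which in the mouse is a close relative of CEACAM1 with a narrower tissue range, gave 6.08, 5.84 and 5.94 on the null arrays and 6.41, 6.04 and 6.61 on the wild type arrays. The groups overlapped only through the second wild type array, which lay below the first null array. The difference was -0.40 (SE 0.16). Ceacam10, which encodes a secreted relative without a membrane anchor, gave 5.57, 5.24 and 5.34 against 5.14, 5.30 and 5.07. These values overlapped and the mean was higher in the null group, by 0.21 (SE 0.13), or by 0.12 with null array 1 left out. The Ceacam10 signals sat at the level of the array medians, 5.25 to 5.32, where the background floor of such arrays compresses differences, so a change in Ceacam10 could be missed.

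**Figure D1:**
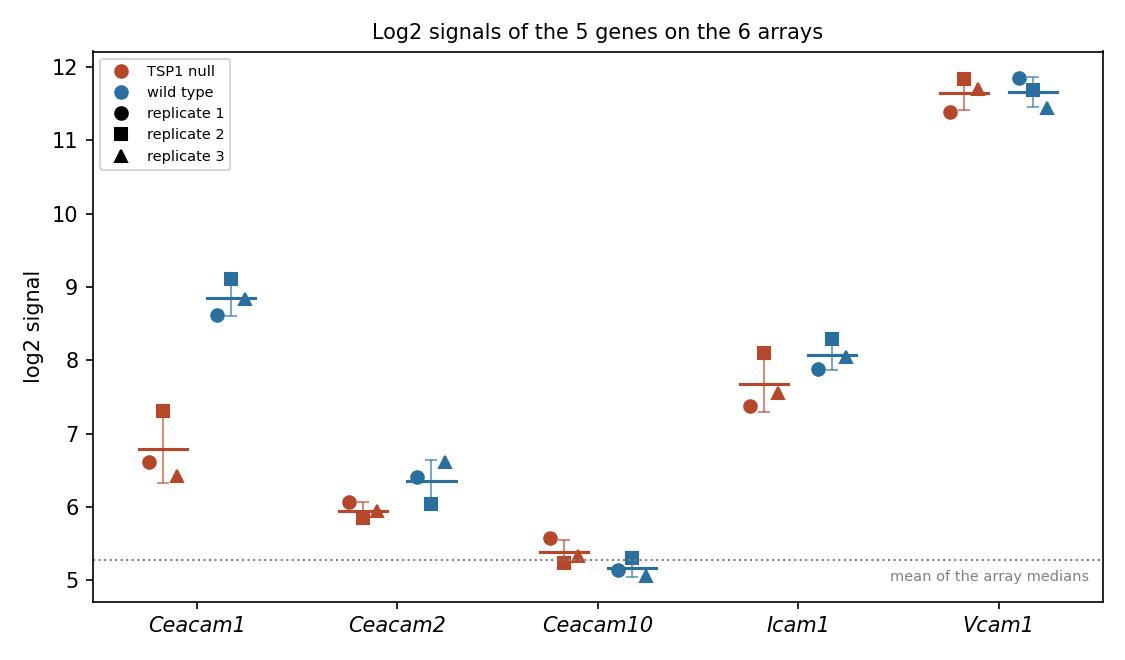
Log2 signal (y axis) of Ceacam1, Ceacam2, Ceacam10, Icam1 and Vcam1 (x axis) on the 6 arrays; points are single arrays, with marker shape for the replicate number, bars are the mean ± SD of 3 arrays, and the dotted line is the mean of the array medians. The Ceacam1 groups stand apart, with null arrays at 6.43 to 7.31 and wild type arrays at 8.62 to 9.11, while the Icam1 and Vcam1 groups overlap.

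Icam1 gave 7.38, 8.11 and 7.55 on the null arrays and 7.88, 8.29 and 8.05 on the wild type arrays. The second null array reached into the wild type range, above the first and the third wild type array, and the other 2 null arrays lay below it. The difference was -0.40 (SE 0.20). With the second null array left out the difference was -0.61, and with the first left out -0.25. Vcam1 gave 11.39, 11.84 and 11.70 on the null arrays and 11.86, 11.68 and 11.45 on the wild type arrays. The groups covered nearly the same range, and the difference was -0.02 (SE 0.16). The 2 arrays with the highest Vcam1 signals, wild type 1 and null 2, were also the 2 highest for a list of 10 fibroblast markers, which had means of 10.61 and 10.28 there and 9.37 to 9.73 on the other 4 arrays. Lum, Dpt, Dcn, Thy1, Pi16 and Fap were highest on these 2 arrays, whereas Col1a1, Col1a2, Col3a1 and Pdgfra were not. Lum and Dpt varied most over the 6 arrays (SD 1.59 and 1.19), and Col1a2 was lowest on wild type 1 (12.53). The part of fibroblast content in the Vcam1 values was not tested.

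All 15 CEACAM family genes listed were measured, and 10 of the 15 had a mean below the median of all probe sets. At an unadjusted p under 0.05 in limma, 2 were lower in the null group, Ceacam1 and Ceacam2, and 0 were higher. Both genes were chosen with this contrast known, so nothing is read from their count by that measure. Over all genes tested, 4.27% were lower and 6.28% higher by that measure, and 0 of 22180 passed an adjusted p of 0.05, with 2341 at an unadjusted p under 0.05; an ordinary linear model also called 0. The median difference of the family was 0.0042, against 0.022 for all genes tested. The range of the other 12 genes, without the 3 described, ran from -0.20 in Ceacam12 to 0.20 in Ceacam15, and in these 12 genes the groups overlapped.

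**Figure D2:**
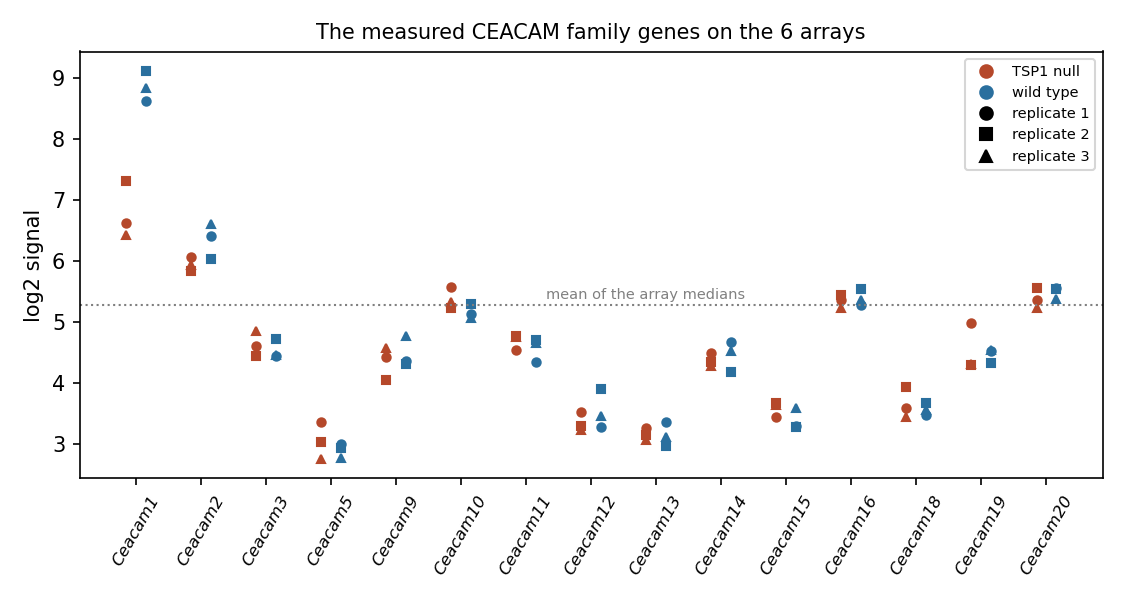
Log2 signal (y axis) of the 15 measured CEACAM family genes (x axis) on the 3 TSP1 null and 3 wild type arrays; each point is an array, and the dotted line is the mean of the array medians. Only the Ceacam1 groups do not overlap, and 10 of the genes have means below the median of all probe sets.

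The cultures held more than contractile cells, which matters here because leukocytes also carry CEACAM1. Acta2, the smooth muscle actin of myoepithelial cells, read 13.85 to 14.01 on the 6 arrays, and all 10 contractile markers had means above the median of all probe sets, as had all 10 fibroblast markers. Basal epithelial markers, which myoepithelial cells of a gland also carry, averaged 5.61 to 6.14, with 6 of 8 above that median. A list of 25 macrophage markers averaged 8.96, 9.73 and 7.29 on the null arrays and 9.57, 10.27 and 10.39 on the wild type arrays. All 25 had lower means in the null group, 5 with no overlap between groups, where 5.75% of all genes were lower without overlap, and the third null array was the lowest. Among them Cd68, a lysosomal protein of macrophages, ran from 9.66 on the third null array to 12.99 on the third wild type array. In bulk RNA, fewer cells of a type and less RNA per cell cannot be told apart. Neutrophil markers, which would also bring Ceacam1, were dim, with list means of 4.30 to 4.46 on the 6 arrays and 11 of 12 genes below the median of all probe sets. The same held for lymphocyte markers (4.47 to 4.64, 9 of 11 below) and lymphatic endothelium (4.76 to 4.98, 4 of 5 below). Vascular endothelial markers averaged 5.42 to 5.92 and luminal epithelial markers 5.28 to 5.99. The epithelial mean was higher in the null group by 0.21, the opposite direction to Ceacam1. The vascular mean had a difference of -0.17, the same direction as Ceacam1, with 6 of its 12 genes lower and 6 higher. Dendritic cell markers averaged 5.74 to 5.96, with 4 of 7 above the median of all probe sets and a difference of 0.026.

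Whether Ceacam1 went with genotype or with the macrophage level was first read from single arrays. Null array 2 and wild type array 1 had nearly the same macrophage level, 9.73 and 9.57, and 19 of the 25 macrophage markers were higher on the null array of this pair. Ceacam1 was 1.31 lower on that null array, which is the gap between the groups given above. Ceacam1 was chosen for its group difference on these arrays, so the direction within this pair was set in advance. Within the null group, Ceacam1 followed the order of the macrophage level, lowest on the third and highest on the second array. The steps were unequal: from the second to the third null array the macrophage mean fell by 2.45 and Ceacam1 fell by 0.88, and from the first to the third the macrophage mean fell by 1.67 and Ceacam1 fell by 0.19. Within the wild type group the first array was lowest for both, whereas the highest Ceacam1 value was on the second and the highest macrophage level on the third array. These steps rest on single arrays and carry no error of their own.

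A fit over all genes then asked how each gene moved with the macrophage mean among arrays of the same group, a measure the choice of Ceacam1 did not use. The slope is the change in log2 signal per unit of the macrophage list mean, with the group as a term and 3 residual degrees of freedom. Ceacam1 had a slope of 0.33 (SE 0.11, 95% interval 0.078 to 0.58 by limma, which pools the spread over genes). This did not pass over all genes (limma adjusted p = 0.652, unadjusted p = 0.0175), while 3.49% of all genes had an upward and 2.44% a downward slope at an unadjusted p under 0.05; of the 5 adhesion genes, 1 was upward and 0 downward by that measure. An ordinary linear model, on the 3 residual degrees of freedom alone, gave the Ceacam1 slope an SE of 0.13 and an unadjusted p of 0.0780. By limma its unadjusted p was 0.0569 with array weights, 0.151 with the replicate block and 0.236 without the second null array. The macrophage markers, each set against the mean of the other 24, had a median slope of 1.09, and 20 of the 25 passed an adjusted p of 0.05 (limma). Their range was 0.58 to 1.34 apart from Cd163, which had -0.093 and read 4.02 to 4.42, below the array medians.

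In the same fit, the Ceacam1 difference between null and wild type at a fixed macrophage level was -1.60 (SE 0.22), compared with -2.07 without that term. It ran from -1.98 to -1.41 when each array was left out in turn, with -1.44 without the third null array, whose macrophage level stood apart; these fits were added after the data were seen. With a list of 8 core macrophage genes in place of the 25 it was -1.62, and with Ptprc alone, the common leukocyte antigen, it was -1.52; both were also added after the data were seen. With luminal epithelial markers as the term it was -2.11, and with vascular endothelial markers it was -1.83. The slope of Ceacam1 depended on the arrays kept: it was 0.62 without the third null array and 0.18 without the second, and 0.85 where the group was left out of the fit. With 6 arrays, and a macrophage level that itself differed between the groups, the 2 terms are only partly separable. The differences at a fixed macrophage level rest on the contrast that Ceacam1 was chosen for, so they are a description without a test.

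**Figure D3:**
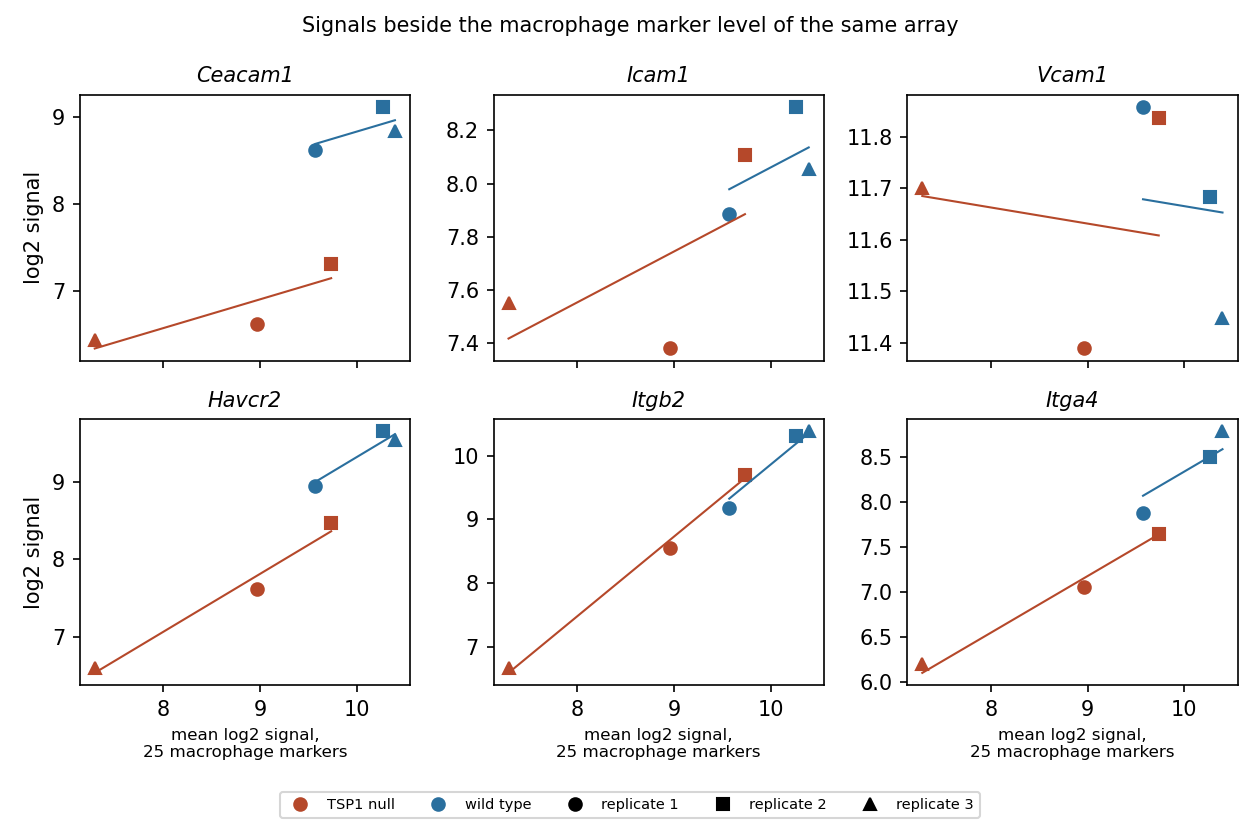
Log2 signal of 6 genes (y axes, each with its own range) against the mean log2 signal of 25 macrophage markers on the same array (x axis); points are arrays and lines have the fitted common slope within each group. The Ceacam1 lines are shallow (slope 0.33) and separated by 1.60, whereas the Itgb2 points fall near a single line with a slope of 1.25.

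The other members had slopes whose limma intervals included 0. Icam1 had 0.19 (SE 0.12, 95% interval -0.093 to 0.48, limma adjusted p = 0.919), which rested on the arrays kept, since it was -0.0083 with null array 2 left out and 0.59 with null array 3 left out. Its group difference at a fixed macrophage level was -0.12 (SE 0.25), against -0.40 without the term, and had no stable sign: it ran from -0.62 with null array 2 left out to 0.13 with null array 1 left out. Vcam1 had a slope of -0.031 (95% interval -0.29 to 0.23) and Ceacam2 of -0.020 (-0.29 to 0.25). For Ceacam10 it was -0.0067 (-0.22 to 0.21).

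Among the counter-receptors, the genes whose products bind these adhesion molecules, 4 of 13 had an upward slope past an adjusted p of 0.05 (limma), where 0.595% of all genes did, and 0 of 22180 had a downward one. Itgb2, the shared chain of the ICAM1 binding leukocyte integrins, gave 8.55, 9.69 and 6.67 on the null arrays and 9.18, 10.31 and 10.38 on the wild type arrays. It overlapped between the groups and had a slope of 1.25 (SE 0.08, adjusted p = 0.00358). Its partner chain Itgam had 1.11 (SE 0.08). Itga4, an alpha chain of integrins that bind VCAM1, gave 7.06, 7.65 and 6.20 against 7.89, 8.50 and 8.79, without overlap. Its slope was 0.63 (SE 0.09, limma adjusted p = 0.0416). These calls rest on the second and the third null array, since 0 genes passed without either of them, with 1066 and 1538 at an unadjusted p under 0.05; the slopes of Itga4 were then 0.63 and 0.91. The Itga4 call was also lost with any other array left out (adjusted p from 0.0511 without wild type array 1 to 0.115 without null array 1), and it held in 7 of 19 alternatives.

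Havcr2, an inhibitory receptor of T cells and myeloid cells for which CEACAM1 has been described as a binding partner, gave 7.62, 8.47 and 6.60 on the null arrays and 8.95, 9.65 and 9.54 on the wild type arrays. The groups did not overlap. Its slope was 0.75 (SE 0.09, limma adjusted p = 0.0145, or 0.289 without the second null, 0.456 without the third null and 0.0617 without the third wild type array, and 0.065 with every deposited probe set), and its group difference was -1.82 (SE 0.43), or -0.76 (SE 0.18) at a fixed macrophage level. For Ceacam1 the same 3 values were 0.33, -2.07 and -1.60; the difference between the slopes of the 2 genes was not tested.

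Of the CEACAM1 signalling partners, 11 of 13 were measured, and 5 were higher and 1 lower in the null group at an unadjusted p under 0.05, where 6.28% and 4.27% of all genes were; 0 passed over all genes. Ptpn6, the phosphatase of leukocytes, gave 8.03, 8.81 and 6.70 against 8.51, 9.45 and 9.55, with a slope of 0.90 (SE 0.09, limma adjusted p = 0.00677, or 0.161 without the second and 0.366 without the third null array). Its widely expressed relative Ptpn11 had a slope of 0.057 (SE 0.09). Shc1, an adaptor of receptor tyrosine kinases, had values of 9.80, 9.82 and 9.69 on the null arrays and 9.10, 9.51 and 9.25 on the wild type arrays, all higher in the null group. Egfr, the epidermal growth factor receptor, had a difference of 0.78 (SE 0.24) and Syk, a tyrosine kinase of blood cells, a slope of 0.46 (SE 0.13). Neither passed over all genes (limma adjusted p of 0.354 for the difference of Egfr and 0.477 for the slope of Syk).

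Of the other immunoglobulin type adhesion genes all 22 were measured. At an unadjusted p under 0.05, 3 were higher and 5 lower in the null group, against 6.28% and 4.27% of all genes, with 0 past an adjusted p of 0.05 (limma), and the median difference was 0.073 against 0.022 for all genes. Bcam, a laminin binding receptor of basal epithelium and other cells, gave 8.16, 8.35 and 8.27 on the null arrays and 6.85, 7.77 and 7.51 on the wild type arrays. Nectin2, a junctional adhesion molecule, gave 9.05, 8.67 and 9.01 against 8.30, 8.33 and 8.38. Both lay wholly higher in the null group, opposite to Ceacam1. Of the 22 genes, 3 lay wholly higher and 3 wholly lower there, against 10.1% and 5.75% of all genes. Cadm1, another homophilic adhesion molecule, had a difference of -1.40 (SE 0.44) with overlapping groups and a slope of 0.71 (SE 0.14, adjusted p = 0.143), and at a fixed macrophage level its difference was -0.40 (SE 0.28). L1cam had a slope of 0.41 (SE 0.09, adjusted p = 0.272). Icam2, named after its values were seen as the closest relative of Icam1 with a difference, read 4.27 to 4.46 on the null arrays and 4.59 to 5.24 on the wild type arrays, below the array medians throughout.

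**Figure D4:**
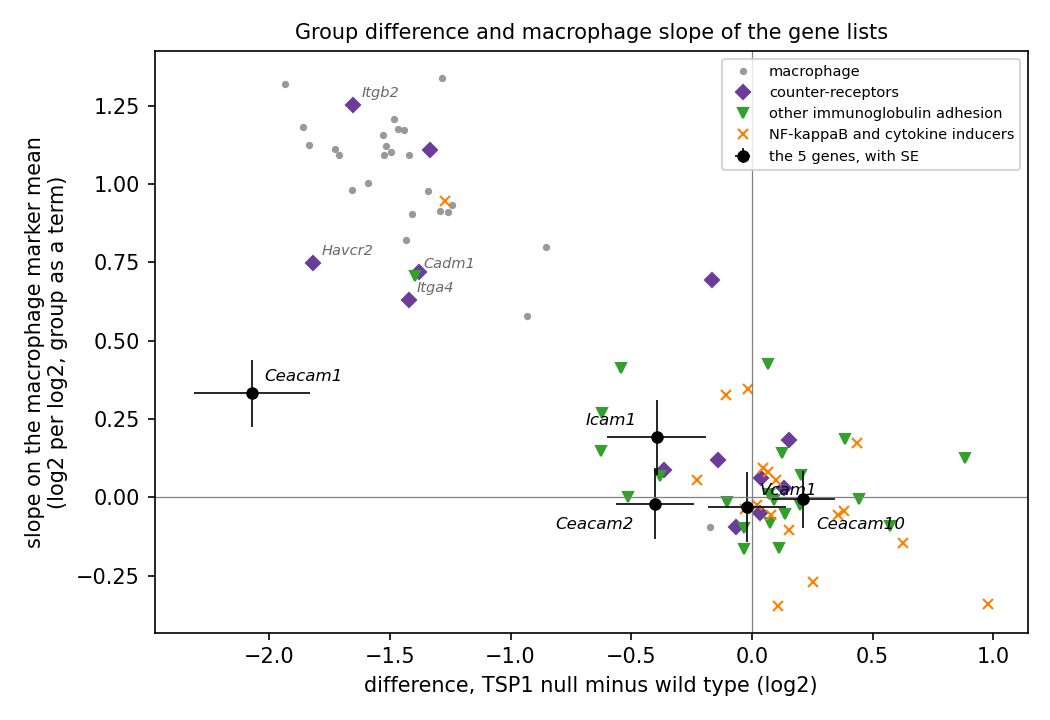
Group difference, TSP1 null minus wild type (x axis, log2), against the slope on the macrophage marker mean (y axis, log2 per log2) for the 5 genes (black, with SE) and for 4 gene lists; each point is a gene. Ceacam1 lies at -2.07 and 0.33, to the left of the macrophage markers, and 24 of these 25 markers have a larger slope, with a median of 1.09.

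Icam1 and Vcam1 are classic targets of NF-kappaB, and the Icam1 upstream sequence is shown because it holds the kind of site that factor binds. The capitals mark GGAAATTCC, searched on both strands, which was found in 0.286% of the 32851 windows and not in those of the 3 CEACAM genes.
Icam1, chr9:21015690-21015939, plus strand: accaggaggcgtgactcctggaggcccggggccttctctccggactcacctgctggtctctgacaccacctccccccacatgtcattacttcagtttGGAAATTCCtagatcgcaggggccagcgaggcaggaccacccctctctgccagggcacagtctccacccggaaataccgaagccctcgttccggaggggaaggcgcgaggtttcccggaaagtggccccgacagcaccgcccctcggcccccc
A list of NF-kappaB subunits, inducing cytokines and their targets had 18 of 20 genes measured. At an unadjusted p under 0.05, 4 were higher and 0 lower in the null group, against 6.28% and 4.27% of all genes, with 0 past an adjusted p of 0.05 (limma), and the median difference was 0.089. Il6, an inflammatory cytokine, gave 9.22, 9.42 and 9.74 on the null arrays and 8.86, 8.77 and 8.88 on the wild type arrays. Cxcl1, a neutrophil attracting chemokine, gave 7.52, 6.78 and 7.57 against 6.76, 6.16 and 6.03. These 2 target genes were higher in the null group, while the Icam1 mean was lower there and the Vcam1 means were nearly equal. Tnf, a main inducer of both adhesion genes, gave 7.92, 8.10 and 6.14 against 7.75, 9.05 and 9.16, with overlapping groups and a slope of 0.95 (SE 0.15, adjusted p = 0.0557), and Tnfrsf1b, a receptor for it, had a slope of 0.34 (SE 0.10, adjusted p = 0.482).

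The genes with the pattern most like that of Ceacam1 were taken by the root mean square distance between log2 profiles over the 6 arrays, each centred on its own mean. The nearest was Cd59a, which protects cells from the membrane attack complex of complement, at a distance of 0.19; it read 8.33, 9.28 and 8.60 on the null arrays and 10.50, 10.76 and 10.50 on the wild type arrays. Its slope on the macrophage mean was 0.20 (SE 0.14), and its difference at a fixed macrophage level was -1.57. Next were Dhdh (0.25), the interferon inducible Ifi207 (0.33), Havcr2 (0.35), Cd300ld3 (0.35), Blnk, a B cell and myeloid signalling adaptor (0.41), Naip6 (0.42), Olfr110 (0.43), the chemokine gene Cxcl14 (0.44) and Aim2, a sensor of cytosolic DNA (0.44). Their slopes ran from 0.20 in Cd59a to 0.75 in Havcr2, all above 0. Those of Havcr2, Blnk and Cd300ld3 passed an adjusted p of 0.05 (limma), where 0.595% of all genes had an upward slope that did. With the second or the third null array left out, 0 genes passed. All 10 genes were picked for their likeness to Ceacam1 on the same arrays. Their slopes and group differences follow in part from that choice, and nothing is read from them. None of the 10 was in the list of 25 macrophage markers, whose median distance from Ceacam1 was 0.70, against 1.10 for all genes and 1.09 for the CEACAM family list.

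The profile of Icam1 was closest to those of Cpeb4, a regulator of translation (distance 0.048), Gnaq, a G protein alpha subunit (0.056), Rnf13 (0.060), Itprid2 (0.070) and Mrvi1 (0.077). Like Icam1, Cpeb4 was highest of its group on the second null array (9.26, against 8.53 and 8.62) and on the second wild type array (9.35, against 9.07 and 9.14). Vcam1 was closest to Dlg1, a scaffold protein of cell junctions (0.035), Mid2 (0.037), Ccdc171 (0.038), Ggps1 (0.041) and Syt1 (0.043). The differences of these 5 genes between the groups ran from -0.05 to 0.05. Of the 5 adhesion genes themselves, the pair farthest apart was Ceacam1 and Ceacam10, at 1.19. The distance is not scaled and Ceacam1 was chosen for its large change, so a gene with little change lies far from it. The median distance of all genes from Ceacam1 was 1.10. The closest pair was Ceacam10 and Vcam1, at 0.28, both with little change over the arrays.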

How the data were processed

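For 41345 probe sets on each array the authors deposited a normalized log2 signal. Partek and RMA are named in the submitters' processing notes, with versions, settings and genome build not given in the sources used here. Array medians ran from 5.25 to 5.32 and correlations between arrays from 0.978 to 0.988. Precision is limited by the number of arrays. Of the probe sets, 23521 had 1 symbol in the platform's annotation, 1814 had several and 16010 were unnamed; per gene the probe set with the highest mean was kept.

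Groups and replicate numbers come from the sample titles, which spell the null group TSP1-1. All 22180 genes were fitted with limma (lmFit, eBayes, two-sided, Benjamini-Hochberg) as null minus wild type, and again with the mean of the macrophage list, centred, beside the group; a listed gene was left out of its own mean. The procedure was tested on simulated data. The members and the 18 lists (206 of 216 genes measured) were chosen with earlier results of these data known. Named were the 5 members, Thbs1, per related list up to 4 genes with an unadjusted p under 0.05 in either fit (or the 2 smallest), up to 2 genes per marker list by highest mean, and the nearest profiles, without predicted loci and small RNAs. Ptpn11, Cd163, Ptprc, the family extremes Ceacam12 and Ceacam15, Icam2, the other genes of the fibroblast list and the genes around Ceacam1 were added after their values were seen. Upstream sequences are RefSeq's. Alternatives were other normalizations, filters, probe set rules, priors, weights, covariates and lists, the replicate block, and each array left out. Software was R 4.3.3, limma 3.58.1, Python 3.11.15, Biopython 1.88 and matplotlib 3.10.9.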

Additional observations from a re-analysis of the deposited data

How the results depend on the processing

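The Ceacam1 difference of -2.07 stayed below 0 in all 26 alternatives, from -2.33 to -1.41, and moved by more than the replicate spread only with a macrophage term: -1.60 with the list, -1.62 with the core list, -1.52 with Ptprc, and, with the list and an array left out, -1.41 and -1.44 (null 1 and 3) and -1.66, -1.53 and -1.64 (wild type 1, 2 and 3). With the list and null 2 left out it was -1.98, within that spread. Without a covariate, leaving out an array gave -2.33 to -1.89. Ceacam1 was chosen for this difference on these same arrays, so its sign in the alternatives was largely set in advance. These values are a description without a test. The Ceacam1 slope stayed above 0 and missed the threshold in all 19 alternatives, from 0.18 to 0.85. The count of genes past an adjusted p of 0.05 was 0 for the group difference, 2 with every deposited probe set, and 0 to 34 with an array left out (34 without the second null array, 1 without the first wild type array). For the slope it was 132, 85 with every deposited probe set, 299 without the group term, 0 with an ordinary linear model (1288 at an unadjusted p under 0.05), and 0 to 140 with an array left out. Over all genes, replicate numbers did not pair the arrays: deviations of same-numbered arrays correlated at -0.14, 0.18 and -0.16. Ceacam1 and Icam1 were nonetheless both highest on the second array of each group. The Icam1 difference of -0.40 had an SE of 0.13 with the replicate block and 0.20 without it. With the replicate block the Ceacam1 difference was -2.07 (SE 0.16), its slope 0.20, the count for the difference 0, and that for the slope 0 (790 at an unadjusted p under 0.05), the slope fit then having 1 residual degree of freedom.

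Slopes near 0 changed sign: Ceacam2 was 0.036 with array weights, 0.16 with the replicate block, 0.12 without the group term and -0.14 to 0.058 with an array left out; Ceacam10 was 0.052 with array weights and -0.18 to 0.12 with an array left out; Icam1 was -0.0083 to 0.59 and Vcam1 -0.24 to 0.015 with an array left out, and Vcam1 0.0095 with Ptprc alone. The cause was not tested. Dim probe sets limit what Ceacam10 can show.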

Other observations

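The genes beside Ceacam1 on chromosome 7, taken by their order in the reference table, are given here as values. The 4 nearest measured genes on each side had differences from -0.40 in Ceacam2 to 0.26 in Dmac2. Lipe, which encodes hormone sensitive lipase, read 5.28, 5.42 and 5.48 on the null arrays and 5.20, 5.37 and 5.40 on the wild type arrays. The chemokine gene Cxcl17, the nearest on the other side from Ceacam2, read 5.63, 5.61 and 5.28 against 5.45, 5.94 and 5.46. Besides Ceacam1, Dmac2 alone had groups that did not overlap, with the null group higher. Of all genes tested, 15.8% had no overlap in either direction and 10.1% with the null group higher, so nothing is read from this.

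The pregnancy specific glycoproteins, the secreted branch of the CEACAM family, were dim, with 12 of 13 means below the median of all probe sets and 0 genes at an unadjusted p under 0.05 for the group difference (limma). Psg29 had a slope of 0.26 (SE 0.07, adjusted p = 0.498) and Psg19 a difference of -0.30 (SE 0.16). Of the selectin list, Selplg, the leukocyte ligand of P-selectin, gave 8.32, 9.07 and 6.22 on the null arrays and 8.71, 9.41 and 9.55 on the wild type arrays, with a slope of 1.16 (SE 0.08, limma adjusted p = 0.00358, or 0.105 without the second and 0.367 without the third null array). Sele, the endothelial selectin, read 4.63 to 5.04 on the 6 arrays with a difference of -0.20 (SE 0.12).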
